A study of Mus musculus with 12 samples.

Results

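B cell genes and the chemokine Cxcl13 were followed in the descending aorta of old and adult mice. The genes were 9 of the 27837 named genes with a probe on the array, and they were chosen by name: Cxcl13, Cxcr5, Cd79a, Cd79b, Ms4a1, Blk, Igj, Ltb and Cd22. They had 10 gene probes in all, 2 of them for Cd22. All animals were male C57BL/6 mice on standard chow with no further treatment, 6 aged 20 months and 6 aged 6 months, and each mouse gave 1 array of Cy3-labelled RNA (Agilent, 1 colour). The aorta had been flushed and cleaned of the fat and connective tissue around it, per the labels.

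Cxcl13 is the chemokine that draws B cells into lymphoid follicles through its receptor Cxcr5. Mature B cells carry the antigen receptor with its signalling chains Cd79a and Cd79b, whereas plasma cells secrete antibody, and the J chain (Igj in the array files, Jchain in RefSeq) joins the units of secreted IgM and IgA. The fat around vessels and on serous surfaces can hold small lymphoid clusters in which Cxcl13, lymphotoxin and B cells occur together.

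Promoter sequences of some members are given here as context. RefSeq's promoter table (GRCm38.p6, 250 bases before to 50 bases after the start of each gene) held 5 of the 9 members and not Cd79b, Ms4a1, Cxcr5 or Blk. Of those 5, Cxcl13 (chr5:95956689-95956988, plus strand), Igj (chr5:88527848-88528147, minus strand), Ltb (chr17:35194257-35194556, plus strand) and Cd22 (chr7:30878979-30879278, minus strand) are printed 5′ to 3′, with motif matches in capitals.
Cxcl13: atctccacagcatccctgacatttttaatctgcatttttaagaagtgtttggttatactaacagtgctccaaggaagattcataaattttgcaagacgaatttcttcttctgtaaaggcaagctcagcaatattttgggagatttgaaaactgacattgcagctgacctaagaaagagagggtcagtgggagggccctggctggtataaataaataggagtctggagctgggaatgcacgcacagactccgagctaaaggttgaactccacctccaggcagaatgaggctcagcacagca
Igj: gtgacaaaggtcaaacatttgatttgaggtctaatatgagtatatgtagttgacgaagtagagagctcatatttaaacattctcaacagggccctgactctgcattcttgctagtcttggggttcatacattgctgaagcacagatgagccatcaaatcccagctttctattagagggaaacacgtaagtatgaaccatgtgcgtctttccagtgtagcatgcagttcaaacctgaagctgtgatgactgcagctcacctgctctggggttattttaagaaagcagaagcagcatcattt
Ltb: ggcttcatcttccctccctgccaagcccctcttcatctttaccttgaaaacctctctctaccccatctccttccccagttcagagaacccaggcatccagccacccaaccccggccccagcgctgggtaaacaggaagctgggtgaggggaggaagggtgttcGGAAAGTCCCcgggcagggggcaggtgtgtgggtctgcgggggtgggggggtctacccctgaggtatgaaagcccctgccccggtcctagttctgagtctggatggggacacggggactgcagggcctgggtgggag
Cd22: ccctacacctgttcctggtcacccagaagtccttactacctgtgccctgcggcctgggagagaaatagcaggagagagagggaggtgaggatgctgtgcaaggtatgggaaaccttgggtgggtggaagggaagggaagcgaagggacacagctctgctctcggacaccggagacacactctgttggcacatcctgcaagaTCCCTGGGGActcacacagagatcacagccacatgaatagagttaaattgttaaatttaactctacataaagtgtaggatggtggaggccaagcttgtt
Both strands were searched for the octamer ATGCAAAT, the EBF motif (TCCC, any 2 bases, GGGA), the NF-kB motif (GGG, any 2 bases, TTTCC) and the PU.1 motif AGAGGAAG. These were present in 1.74%, 0.904%, 1.63% and 4.55% of all 32851 promoters, in that order. Ltb held 1 NF-kB match, GGAAAGTCCC, at position -87 relative to the start, and Cd22 held 1 EBF match, TCCCTGGGGA, at position -49. No match overlapped another. The windows of Cxcl13, Igj and Cd79a held none of these letters. A match describes the letters only and says nothing of binding.

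Levels are log2 of the processed signal minus the 75th percentile of the gene probes on the same array, so a level of 0 stands at that percentile, and levels of different probes are not compared. Each of the 3 slides carried 2 old and 2 adult mice. All 20-month arrays lay in column 3 of their slide and no 6-month array did, so column and age cannot be told apart. The share of gene probes above background ran from 47.5% to 55.8% per array. Heart muscle markers were high in 20 months replicate 1 and in 6 months replicate 1, at 3.63 and 2.29 above their mean over the 12 arrays (log2). T and NK cell markers were high in 6 months replicate 4, at 1.68 above. Dntt, the 1 thymocyte marker of 4 that was tested, stood 4.38 above its mean on that same array. Fat markers were bright, with summed levels of 738.8 to 1190 times the 75th percentile at 20 months and 761.2 to 1302 times at 6 months. Of the 5 fat markers 4 had a lower mean at 20 months, with a median difference of -0.15 (20 minus 6 months). All 4 brown fat markers did, with a median of -0.65, against 56.2% of all genes tested. No marker of either list had an adjusted p under 0.05 (limma). An unadjusted p under 0.05 was found for 1 brown fat marker, against 8.01% of all genes.

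The label "B cell" held for only some of the probes. A probe was tested if the scanner software marked it as well above background on 6 or more arrays, counted over both ages, and 6 of the 9 genes had such a probe: Cxcl13, Igj, Cd79b, Ms4a1, Ltb and Cd22. Among the markers listed for B cells, Pax5, the factor that sets B cell identity, stood above background on 0 arrays with either of its 2 probes. Cd79a did so on 1 array, and the probe named for the IgM heavy chain gene Ighm on 5, whereas another probe that the array describes as the IgM heavy chain did so on all 12. Cd79b and Ms4a1 were the B cell markers that were tested, and their summed level was 0.454 to 1.44 times the 75th percentile at 20 months and 0.363 to 0.826 times at 6 months. In a whole vessel, fewer cells of a type and less RNA per cell cannot be told apart.

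No member passed the test between the ages. Of 16743 genes tested with limma, 0.317% were called at an adjusted p under 0.05 in either direction (53 genes), 0.263% as higher and 0.0538% as lower at 20 months, and 0 of the 6 tested members were among them in either direction. At an unadjusted p under 0.05, 1 of the 6 members passed, against 8.01% of all genes. The 6 values at one age lay wholly apart from those at the other for 0 of the 6 members and for 0.806% of all genes. Changes are given as 20 months minus 6 months, and 4 of the 6 were positive and 2 negative, against 43.8% and 56.2% of all genes. The median member change was 0.11, against -0.02 over all genes. Without these 3 arrays that stood apart in heart or T cell markers, the differences were -0.92 for Cxcl13, 0.45 for Igj, 0.43 for Cd79b, 0.40 for Ms4a1, 0.35 for Ltb and -0.012 for Cd22, and none passed.

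**Figure D1:**
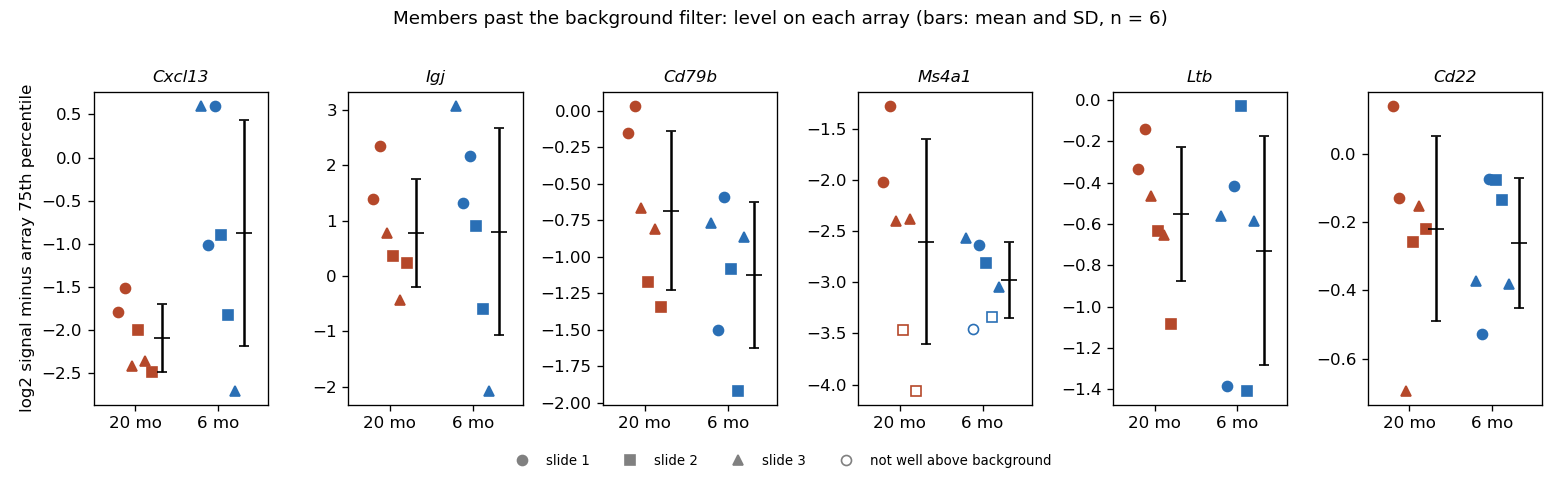
Level of the 6 tested members on each array (log2 signal minus the array's 75th percentile, with its own axis per gene), with 20 months left of 6 months. Symbols give the slide, open symbols are probes not well above background, and bars give mean and SD (n = 6). The values of both ages overlap for each of the 6 genes, and Cxcl13 and Igj spread most widely at 6 months.

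Cxcl13 was the member with the largest difference between the ages. Its probe (chr5:96389861-96389920, plus strand, mm9) stood above background on all 12 arrays. The level at 20 months had a lowest value of -2.49, a median of -2.18 and a highest value of -1.51, whereas at 6 months these were -2.70, -0.96 and 0.60. The old mice sat in a narrow band, while 2 adult mice, replicates 1 and 3, both at 0.60, stood above all others and 1 adult mouse, replicate 6, was the lowest of the 12. The mean level was -2.10 ± 0.39 at 20 months and -0.88 ± 1.31 at 6 months (SD, n = 6 each). The difference of -1.22 ± 0.49 (SE; a 2.33-fold lower mean at 20 months; 95% interval -2.29 to -0.15) had an unadjusted p of 0.0281 and an adjusted p of 0.542 (limma), so that it did not pass.

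The difference in Cxcl13 was negative on each slide, at -1.44 on slide 1, -0.88 on slide 2 and -1.34 on slide 3, and with the slide as a block its adjusted p was 0.404 (limma). It was -0.93 without 6 months replicate 1 and -0.92 without 6 months replicate 3. Markers of mesothelium, the lining of serous surfaces, were set beside it. All 5 tested of the 6 (Msln, Upk3b, Krt19, Wt1 and Lrrn4) had a negative difference, against 56.2% of all genes. Of the 12 arrays, Msln and Krt19 stood above background on 10, Lrrn4 on 9, Upk3b on 8 and Wt1 on 7. The size of these differences thus rests in part on dim values. The median of these 5 markers was -1.90, and none of them was called. All 5 had an unadjusted p under 0.05 (limma), against 8.01% of all genes. Their summed level was 0.273 to 2.18 times the 75th percentile at 20 months and 1.13 to 6.90 times at 6 months. The 2 arrays highest in these markers, at 1.79 and 2.36 above their mean, were the 2 highest in Cxcl13, 6 months replicates 1 and 3. Over the 12 arrays Cxcl13 and the mesothelial mean had a Pearson r of 0.60 (permutation p = 0.0388, adjusted p = 0.148 over the 19 relations computed). Their Spearman rho was 0.47 (permutation p = 0.129, adjusted p = 0.271). The 19 relations were chosen after values had been seen. Without those 2 arrays r was 0.10. It was -0.30 within the 6 mice aged 20 months, 0.69 within the 6 aged 6 months, 0.34 with the age means taken away and 0.75 with the slide means taken away. The part of these markers in the Cxcl13 difference was not tested.

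The receptor for Cxcl13, Cxcr5, was not measurable in most mice. Its probe (chr9:44320071-44320130, minus strand, mm9) stood above background in 2 of 6 mice at 20 months and 1 of 6 at 6 months. Measured levels had a median of -3.98 at 20 months, with a range of -5.42 to -2.85, and a median of -4.90 at 6 months, with a range of -5.82 to -3.31. No fold change is given where so few arrays carried a signal.

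Igj differed more between mice of one age than between the ages. Its probe (chr5:88949919-88949978, minus strand, mm9) stood above background on all arrays. The lowest level at 20 months was -0.43, the median 0.57 and the highest 2.35, whereas at 6 months these were -2.06, 1.11 and 3.07. Both the highest and the lowest of the 12 mice were adult, replicates 1 and 6, and they lay 35.1-fold apart, against 6.88-fold between the extremes at 20 months. The mean was 0.78 ± 0.98 at 20 months and 0.80 ± 1.87 at 6 months (SD, n = 6 each), a difference of -0.02 ± 0.76 (SE, adjusted p = 0.996, limma). The 95% interval of the difference ran from -1.66 to 1.61. Within slides the difference was 0.13, 0.14 and -0.33.

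Immunoglobulin probes varied with Igj. The array's own descriptions marked 108 probes as immunoglobulin heavy or light chains, a set chosen after values had been seen, and 27 of them passed the filter. None of the 27 was called between the ages in the fit over every probe (limma), against 71 of all 27583 probes. An unadjusted p under 0.05 was found for 1 of the 27, against 2087 of all 27583. Of the 27 differences, 10 were positive and 17 negative. The shares over all genes tested, which use the brightest probe per gene rather than every probe, were 43.8% and 56.2%. The median of the 27 was -0.15. Variable-region probes of one family can share targets, so the 27 are not independent.

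The probe for the IgM heavy chain (chr12:114659630-114659689, mm9) had levels at 20 months of 1.78, 2.14, 1.004, 0.68, 0.31 and 0.47 in replicates 1 to 6, and at 6 months of 2.71, 1.202, 2.31, 1.14, 0.22 and -0.81. The probe for the kappa constant region (chr6:70676692-70676751, mm9), the light chain of most mouse antibodies, had levels at 20 months of 3.84, 4.17, 2.70, 2.13, 1.83 and 2.31, and at 6 months of 4.66, 2.83, 4.29, 2.80, 0.63 and -0.37. In both probes replicates 1 and 2 were the highest at 20 months, replicates 1 and 3 were the highest at 6 months and replicate 6 was the lowest at 6 months, as in Igj, and the ages overlapped. The differences were -0.07 ± 0.54 for the IgM heavy chain and 0.35 ± 0.79 for kappa (SE; adjusted p = 0.989 and 0.939, limma over every probe).

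**Figure D2:**
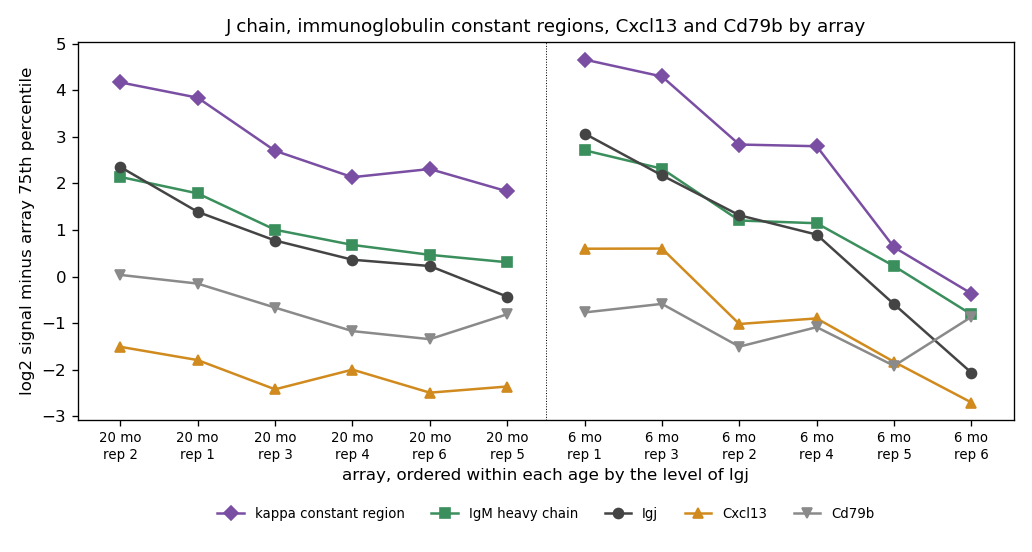
Levels of Igj, the IgM heavy chain, the kappa constant region, Cxcl13 and Cd79b on the 12 arrays (log2 signal minus the array's 75th percentile), 20 months on the left and 6 months on the right, ordered within each age by Igj. The IgM and kappa lines slope down with Igj at both ages, the Cxcl13 line does so too and lies lower at 20 months, and the Cd79b line turns up at 6 months replicate 6; heights of different probes are not comparable.

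Across the 12 arrays the IgM heavy chain probe had a Pearson r of 0.99 with Igj and the kappa constant region probe one of 0.97. These are descriptions, given without a p because the probes were chosen after values had been seen. Of the 27 probes, 17 had an r above 0.7 with Igj, with a median of 0.74 and a range of 0.20 to 0.99, against 0.376% of all tested genes above 0.7. Of the IgG heavy chain probes, the gamma polypeptide probe had an r of 0.53, a gamma-2a-like probe one of 0.47 and the IgG2a probe one of 0.43. The IgG2a probe stood above background in every mouse and varied by 59.0-fold over them, whereas the other two stood above background on 10 of the 12 arrays. The probe for the delta heavy chain, which naive B cells carry on their surface as IgD, had an r of 0.20 with Igj and of 0.76 with Cd79b. The gamma polypeptide probe also had an r of 0.76 with Cd79b, and these were the 2 of the 27 probes with an r above 0.7 there.

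Cxcl13 and Igj varied together among the mice. As the 19 relations computed were chosen after values had been seen, their p-values are descriptions. Of the 19, the relation of Cxcl13 and Igj was 1 of 3 with an adjusted p under 0.05 in both measures. It had a Pearson r of 0.77 (permutation p = 0.00272, adjusted p = 0.0172) and a Spearman rho of 0.80 (permutation p = 0.00273, adjusted p = 0.0259). Without the 2 arrays farthest from the median of Cxcl13, 6 months replicates 1 and 3, r was 0.64. It was 0.83 within the 6 mice aged 20 months and 0.97 within the 6 aged 6 months, 0.93 with the age means taken away and 0.73 with the slide means taken away. Without 6 months replicate 1 it was 0.68 with an adjusted p of 0.105 (permutation). Without the 3 arrays that stood apart in heart or T cell markers it was 0.71 with an adjusted p of 0.149 (permutation). Neither adjusted p lay under 0.05. The IgM heavy chain probe had an r of 0.80 with Cxcl13 and of 0.95 with the age means taken away, and the kappa constant probe had 0.70 and 0.95. Of the 27 immunoglobulin probes, 15 had an r above 0.7 with Cxcl13, with a median of 0.725 and a range of -0.16 to 0.935.

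**Figure D3:**
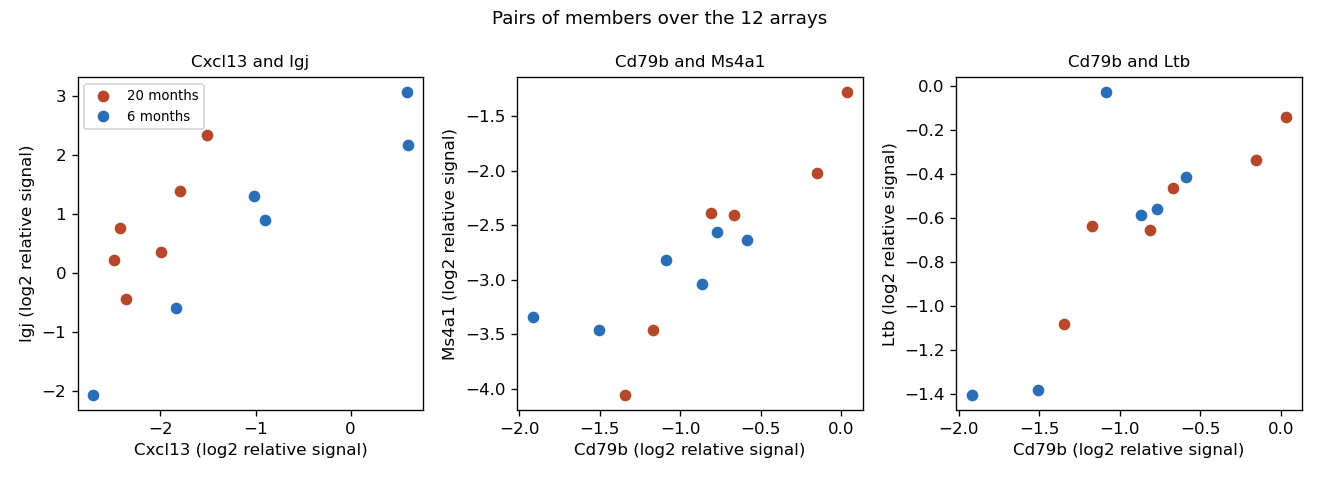
Pairs of members over the 12 arrays (both axes log2 signal minus the array's 75th percentile; each point is 1 mouse, 20 months in orange and 6 months in blue): Cxcl13 and Igj, r = 0.77; Cd79b and Ms4a1, r = 0.86; Cd79b and Ltb, r = 0.80. The ages form separate bands in the first panel, where old mice have less Cxcl13 at a like level of Igj, and 6 months replicate 4 lies above the other points in the last panel.

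Of the B cell surface genes, none passed. Cd79b, a signalling chain of the B cell receptor (probe chr11:106172780-106172839, minus strand, mm9), had a lowest level of -1.35, a median of -0.74 and a highest of 0.03 at 20 months, against -1.92, -0.98 and -0.59 at 6 months. Replicates 1 and 2 at 20 months, both on slide 1, lay above all other mice, and the rest overlapped. The mean was -0.69 ± 0.55 at 20 months and -1.12 ± 0.50 at 6 months (SD, n = 6 each), a difference of 0.44 ± 0.27 (SE, 95% interval -0.15 to 1.02, adjusted p = 0.717, limma). It was 0.99 on slide 1, 0.24 on slide 2 and 0.08 on slide 3, and the adjusted p with the slide as a block was 0.473.

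Ms4a1 encodes CD20, a surface protein of B cells that plasma cells lack. Its probe (chr19:11325367-11325426, minus strand, mm9) stood above background in 4 of 6 mice at each age. The lowest, median and highest levels were -4.06, -2.40 and -1.28 at 20 months and -3.46, -2.93 and -2.56 at 6 months. The highest value was that of 20 months replicate 2, and the lowest values of both ages were not well above background and have no reliable order. The difference was 0.37 ± 0.39 (SE, adjusted p = 0.822, limma), and it was 1.40 on slide 1, -0.68 on slide 2, where 3 of the 4 values were not well above background, and 0.41 on slide 3. With each array left out in turn it ran from 0.11, without 20 months replicate 2, to 0.67, without 20 months replicate 6.

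Cd22 is an inhibitory co-receptor of B cells. The brighter of its 2 probes (chr7:31651249-31651308, minus strand, mm9) varied least among the 6 tested members, by 1.78-fold over all mice. Its lowest, median and highest levels were -0.69, -0.19 and 0.14 at 20 months and -0.53, -0.25 and -0.07 at 6 months, and the old mice spanned the range of the adult ones. The difference was 0.04 ± 0.13 (SE, 95% interval -0.24 to 0.32, adjusted p = 0.951, limma). The other Cd22 probe (chr7:31665113-31665172) stood above background in 1 mouse of each age, so the 2 probes did not measure the gene alike.

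Ltb, lymphotoxin beta, is the membrane anchor of the ligand that acts on stromal cells of lymphoid tissue and is made by T cells as well as B cells. Its probe (chr17:35333097-35333156, plus strand, mm9) had a lowest level of -1.08, a median of -0.55 and a highest of -0.14 at 20 months, against -1.41, -0.57 and -0.03 at 6 months. The highest value was that of 6 months replicate 4, the array high in T and NK cell markers, and the ages overlapped. The difference was 0.18 ± 0.24 (SE, 95% interval -0.33 to 0.69, adjusted p = 0.870, limma), and 0.32 without that array. It was 0.042 without 6 months replicate 5 and 0.047 without 6 months replicate 2, the 2 lowest arrays of that age.

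Cd79b varied with Ms4a1, of whose 12 values 4 were not well above background, and with Ltb. These relations too were chosen after values had been seen, so their p-values are descriptions. The first pair had a Pearson r of 0.86 (permutation p = 0.00041, adjusted p = 0.00779) and a Spearman rho of 0.87 (permutation p = 0.00051, adjusted p = 0.00969). The second had an r of 0.80 (permutation p = 0.0021, adjusted p = 0.0172) and a rho of 0.78 (permutation p = 0.00481, adjusted p = 0.0305). Without the 2 arrays farthest from the median of Cd79b, 20 months replicate 2 and 6 months replicate 5, r was 0.87 and 0.65. With the slide means taken away it was 0.77 and 0.88, and with the age means taken away 0.86 and 0.80. Leaving out 6 months replicate 4 gave 0.94 for Cd79b and Ltb, whereas leaving out 6 months replicate 5 gave 0.70 with an adjusted p of 0.0765 (permutation).

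Cd79b and Cxcl13 had an r of 0.13 (permutation p = 0.688, adjusted p = 0.817) and a rho of 0.24 (permutation p = 0.445, adjusted p = 0.528). Its r was 0.77 within the 6 mice aged 20 months, 0.50 within the 6 aged 6 months, 0.49 with the age means taken away and -0.08 with the slide means taken away. Cd79b and Igj had an r of 0.45 (permutation p = 0.142, adjusted p = 0.351) and a rho of 0.60 (permutation p = 0.0425, adjusted p = 0.162). For that pair r was 0.81 at 20 months, 0.37 at 6 months, 0.50 with the age means taken away and 0.29 with the slide means taken away. Neither pair had an adjusted p under 0.05 over all 12 arrays, and whether these values differ from those of the pairs above was not tested. In 6 months replicate 6 Igj was at -2.06, its lowest, while Cd79b was at -0.87, above the median of the adult mice. Cd22, by its brighter probe, had an r of 0.26 with Cd79b, 0.25 with Ms4a1 and 0.30 with Ltb. Its r was 0.14 with Cxcl13 and 0.10 with Igj, and each of these had an adjusted p of at least 0.64 (permutation). With the slide means taken away, r was 0.50 for Cd22 with Cd79b and 0.49 for Cd22 with Ms4a1.

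Cd79a and Blk, a Src-family kinase of B cells, gave almost no signal. Cd79a stood above background in 1 of 6 mice at 20 months and 0 of 6 at 6 months, with measured levels of -4.43 to -3.48 at 20 months and -4.24 to -3.51 at 6 months. Its probe (chr7:25684357-25684614, plus strand, mm9) is 60 bases long and spans 258 bases of genome. Blk stood above background on 0 of 12 arrays, with levels of -5.77 to -3.73 at 20 months and -5.76 to -4.51 at 6 months. These levels have no reliable order, and no fold change is given.

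**Figure D4:**
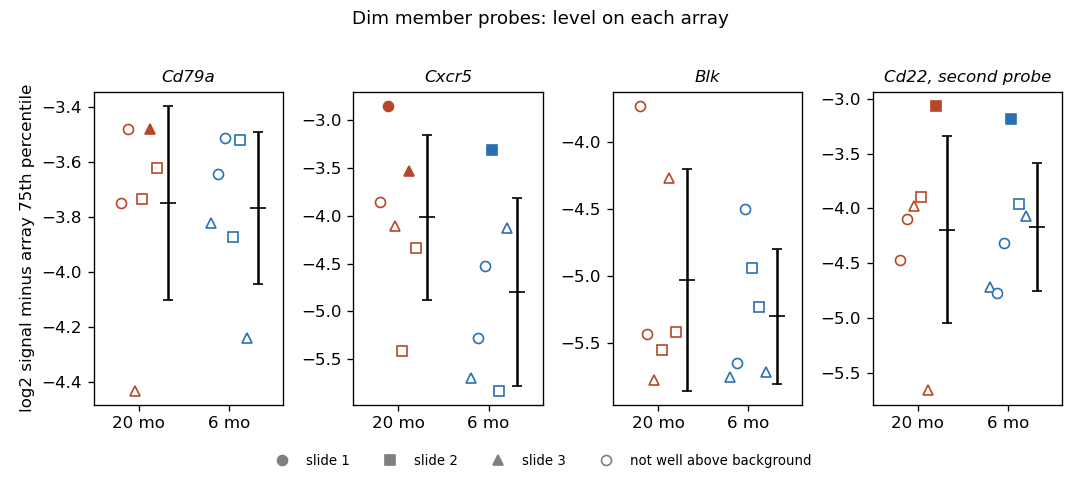
Levels of the member probes below the filter on each array (log2 signal minus the array's 75th percentile, own axis per probe), 20 months left of 6 months, with the slide as symbol and mean and SD as bars (n = 6). Nearly all points are open, that is, not well above background: Cd79a has 1 filled point, Cxcr5 has 3, Blk has 0 and the second Cd22 probe has 2.

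Genes of B cell receptor signalling and of the B cell surface did not pass in any case. Of the 20 listed, 13 were tested, and 0 were called higher and 0 lower, against 0.317% of all genes called. Of the 13 differences 11 were positive, against 43.8% of all genes, and the median of the 13 was 0.15. Macrophage markers were added here because several of the listed genes also act in myeloid cells. All 5 macrophage markers had a positive difference, with a median of 0.24, and 0 were called. Of the 5, 2 had an unadjusted p under 0.05, against 8.01% of all genes. Their summed level was 131.9 to 184.2 times the 75th percentile at 20 months and 109.8 to 154.8 times at 6 months, and their part in the differences of the B cell lists was not tested. Fcmr, the receptor for IgM, had the smallest p: its level was -2.21 ± 0.61 at 20 months and -3.04 ± 0.71 at 6 months (SD, n = 6 each), a difference of 0.83 ± 0.34 (SE, adjusted p = 0.543, limma). It was the 1 gene of the 13 with an unadjusted p under 0.05, against 8.01% of all genes. Bank1, a scaffold protein of B cell signalling, differed by 0.23 ± 0.11 and Syk, a kinase that acts below the B cell receptor and also in myeloid cells, by 0.28 ± 0.14 (SE; adjusted p = 0.656 and 0.669).

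Transcription factors of B cells gave 7 tested genes of 9, 0 of them called. Of the 7 differences 6 were positive, against 43.8% of all genes, and the median of the 7 was 0.30. Bcl6, a repressor that germinal centre B cells need and that other tissues also express, stood at 4.03 ± 0.45 at 20 months and 3.58 ± 0.37 at 6 months (SD, n = 6 each), a difference of 0.45 ± 0.21 (SE, adjusted p = 0.644, limma). Bach2, a repressor of the plasma cell programme, differed by 0.27 ± 0.15 and Ciita, the activator of MHC class II genes, by 0.64 ± 0.56 (SE; adjusted p = 0.690 and 0.783). None of the 7 had an unadjusted p under 0.05, against 8.01% of all genes.

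Of 12 genes listed for plasma cells, 8 were tested and 0 were called. Their differences were positive for 5, against 43.8% of all genes, and negative for 3, and the median of the 8 was 0.01. Derl3, a protein of the endoplasmic reticulum that clears misfolded chains, differed by 0.33 ± 0.19 (SE, adjusted p = 0.690, limma). Pigr, the receptor that carries polymeric IgA and IgM across epithelium, differed by -0.20 ± 0.14 (SE, adjusted p = 0.762, limma). Tnfrsf17, the survival receptor of plasma cells, differed by 0.23 ± 0.40 (SE, adjusted p = 0.905, limma), and its probe stood above background on 7 of the 12 arrays. As Pigr acts in epithelium, the list is not a measure of plasma cells alone.

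Of 26 genes for lymphoid chemokines and the tumour necrosis factor family, 16 were tested and 0 were called. Their differences were positive for 10, against 43.8% of all genes, and negative for 6, and the median of the 16 was 0.09. The survival factor of B cells Tnfsf13b (BAFF) had a level of -0.66 ± 0.12 at 20 months and -1.03 ± 0.30 at 6 months (SD, n = 6 each), a difference of 0.37 ± 0.13 (SE, unadjusted p = 0.0112, adjusted p = 0.400, limma). Vcam1, an adhesion molecule for leukocytes, differed by 0.30 ± 0.11 and Nfkb2, the NF-kB subunit that works downstream of the lymphotoxin receptor, by 0.19 ± 0.07 (SE; adjusted p = 0.450 and 0.475). These 3 and the adhesion molecule Icam1, named here after its value was seen, were the 4 of 16 with an unadjusted p under 0.05. The share over all genes was 8.01%. The lymphotoxin receptor Ltbr differed by -0.13 ± 0.08 and Ccl19, a chemokine of the T cell zone, by 0.07 ± 0.11 (SE; adjusted p = 0.728 and 0.891).

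**Figure D5:**
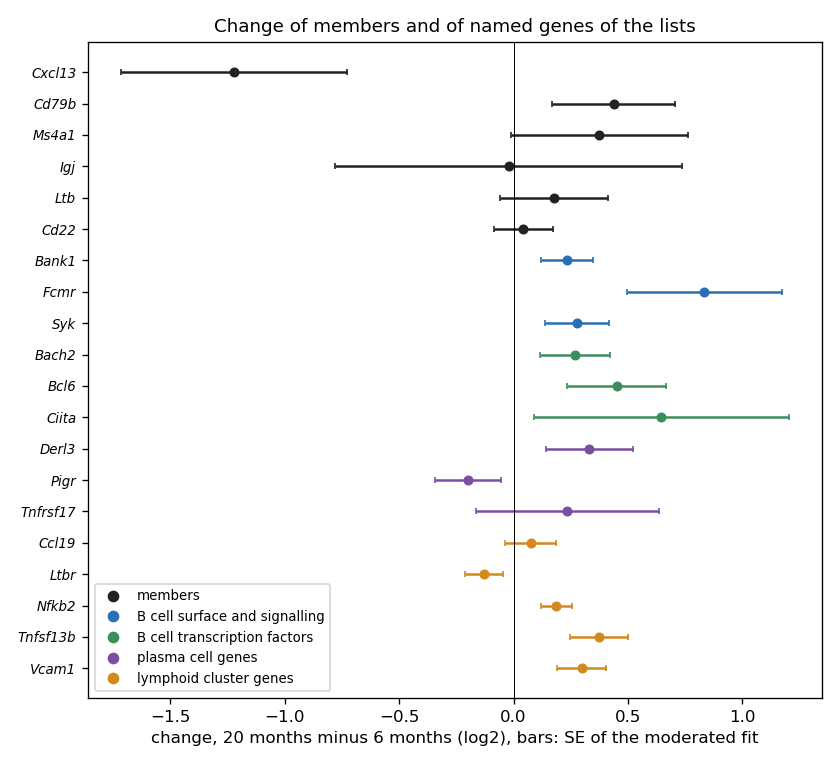
Difference between the ages, 20 months minus 6 months (log2, horizontal axis), with SE of the moderated fit, for the 6 tested members and for the named genes of the 4 lists, coloured by list. Cxcl13 lies farthest below 0 at -1.22, Fcmr lies farthest above at 0.83, and no gene shown passed after adjustment.

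The genes most like each pattern were read from the correlation over the 12 arrays among all tested genes, as a description. Tested genes are those with a gene name, so probes without one were not ranked. Among those left out were the IgM heavy chain and kappa constant region probes, with an r of 0.99 and 0.97 with Igj. A kappa light chain probe, likewise left out, had an r of 0.935 with Cxcl13. For Cxcl13 the highest ranked genes were LOC100047316 (r = 0.92), Asb5 (0.91), Sh3d21 (0.89), Evpl (0.87), Snrnp40 (0.84) and Ccdc85a (0.82). For Cd79b they were Epor (0.92), Gpr65 (0.90), Irf8 (0.89), Fcmr (0.88), H2-DMa (0.88) and Cd74 (0.87). Irf8 is a transcription factor of B cells and myeloid cells, and H2-DMa and Cd74 act in MHC class II antigen presentation. For Igj they were LOC677484 (0.93; described by the array as similar to the IgM heavy chain), Arl4c (0.92), LOC675735 (0.91; a kappa variable region), LOC544904 (0.86), Mzb1 (0.86; a chaperone of antibody-secreting cells) and Ddx56 (0.86).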

How the data were processed

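The deposited scanner files hold, per array, an intensity (processed green signal) for 62976 spots, which the authors obtained with Agilent Feature Extraction 10.7.1.1, background already subtracted, per the file headers. The deposited value table holds log2 values centred per probe by the authors; it served as an alternative. Probe positions refer to mm9, per the file headers.

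Outlier-flagged spots were left out, spots of a probe were averaged, and log2 values were set relative to the 75th percentile of the array's gene probes. Of 55681 gene probes, 55630 had a value on every array. The brightest probe per gene above background on at least 6 of 12 arrays gave 16743 genes. Ages were compared with limma 3.58.1 (lmFit, eBayes; R 4.3.3) with Benjamini-Hochberg adjustment and a threshold of 0.05, after a test on simulated data. Relations between members used 100000 permutations. Their number, 6 arrays per age, limits the precision.

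Members, lists and tests were chosen with earlier results of these data known. Named genes are the members, the 3 smallest p of each list and others always given (Pax5, Ighm, Ltbr, Tnfsf13b, Ccl19); 1 gene of the rule is not reported here. The likeness rule was written for Cxcl13 and Cd79a; as Cd79a was above background on 1 array, Cd79b and Igj took its place after values were seen. The relations and the immunoglobulin set were also chosen after values were seen.

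Alternatives covered background correction (normexp, offset 50), quantile and median scaling, the value table, the filter, the slide, the replicate number as a block, other uses of probes, each array left out, and the 3 arrays high in markers of heart muscle or T cells left out.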

Additional observations from a re-analysis of the deposited data

Results flagged for a closer look

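Of 48 groups of 6 values examined, 1 held a value far from the others. The Cd79a level of 20 months replicate 3 was -4.43, below the other 5 old mice at -3.75 to -3.48. The probe stood well above background on 1 array in all, so the value lies among signals without a reliable order.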

How the results depend on the processing

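No alternative called any member. Cxcl13 was lower at 20 months in all 27 alternatives (-1.59 to -0.81, adjusted p at least 0.189, limma) and Cd79b higher in all 27 (0.08 to 0.99). Ms4a1 turned to -0.68, Ltb to -0.14 and Cd22 to -0.13 on slide 2 alone, and Cd22 to -0.045 on slide 3 alone. Igj, at -0.02 as reported, turned to 0.012 with median scaling, 0.13 on slide 1 and 0.14 on slide 2. Without the 3 arrays high in markers of other tissues Igj was 0.45 and Cd22 -0.012. With each array left out in turn, Igj ran between -0.59 and 0.43, Cd22 between -0.030 and 0.14, Ms4a1 between 0.11 and 0.67, Ltb between 0.042 and 0.32 and Cd79b between 0.28 and 0.57; the cause was not tested.

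The count of called genes, 53, was 33 with median scaling, 24 with no filter (more genes tested), 80 with the slide as a random block, 1, 1 and 0 on slides 1, 2 and 3 alone (2 arrays an age; 516, 1635 and 876 at an unadjusted p under 0.05), 30 without those 3 arrays, and 21 to 59 with each array left out. Same-numbered mice did not deviate together (correlations -0.36 to 0.32), and the numbers were not taken as pairs in the main fit. These correlations cannot show whether the mice were paired. With the replicate block 7 genes were called, all higher, and no member was.

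The relation of Cxcl13 and Igj was 0.68 to 0.82 with each array left out and 0.71 (adjusted p = 0.149, permutation) without the 3 arrays, that of Cd79b and Ltb 0.70 to 0.94 and that of Cd79b and Ms4a1 0.80 to 0.92. Signal over background limits Cxcr5, Cd79a and Blk, for which no difference was detectable.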
